A study of Mus musculus with 24 samples.

Results

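The genes described here are 46 genes of the cell cycle and of DNA replication, taken by symbol from the 24537 rows of the deposited count table. They fall into 7 roles. There are 12 licensing and helicase genes, 7 fork and synthesis genes, 5 D cyclins and their kinases, 3 E cyclins with Cdk2, 4 E2F and pocket protein genes, 4 A and B cyclins with Cdk1, and 11 genes of mitosis and proliferation. The question the list addresses is whether post-mitotic myofibers, or other cells of the muscle, entered the cell cycle when the reprogramming factors Oct4, Sox2, Klf4 and c-Myc (OSKM) were induced.

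RNA was sequenced from whole EDL muscles, which are mostly fast-twitch, and whole SOL muscles, which are mostly slow-twitch, of 2-month-old mice. All mice carried 1 copy of Col1a1-tetO-4F, the Dox-inducible OSKM cassette, and 1 copy of ROSA26-LSL-rtTA, and all drank water with 1 mg/ml Dox for 2.5 days, 5.5 days or 8.5 days. Acta1-Cre+/4Fhet mice (Cre+) also carried Cre under the Acta1 promoter of skeletal muscle, so that the stop cassette is removed in myofibers, and Acta1-Cre-/4Fhet mice (Cre-) did not. There were 24 libraries, with 2 for each muscle, genotype and time point. The study describes the samples within a group of EDL or of SOL muscles as biologically independent. It does not state that the EDL and SOL muscles came from different mice. EDL and SOL libraries with the same replicate number deviated together, so the muscles may not be independent of each other. A whole muscle also holds satellite cells (SCs), endothelium, fibroblasts and immune cells, and the model induces OSKM in none of these. In such samples, fewer cells of a type and less RNA per cell cannot be told apart.

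In the textbook cell cycle, growth signals raise D cyclins, which with Cdk4 and Cdk6 phosphorylate the pocket protein Rb. Rb then releases E2F factors, which turn on cyclin E and the genes of replication. The MCM helicase, loaded in G1, opens the DNA, and the fork proteins copy it. A and B cyclins with Cdk1, followed by the Aurora and Polo kinases and the spindle checkpoint, then drive mitosis. Adult myofibers have left the cycle for good, and in resting muscle nearly all dividing cells are mononuclear cells.

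Genes of replication are known for E2F sites in their promoters and genes of mitosis for CHR elements, which is why 4 promoters are shown here. RefSeq promoter windows (GRCm38.p6, 250 bases before to 50 after the start) were found for 36 of the 46 genes. For each gene the window nearest the start of the deposited transcript was taken, and 30 of the 36 sat at that start. Windows at other starts of a gene were not searched. On both strands of each window 4 motifs were searched. The E2F motif was spelled TTTCGCGC or TTTGGCGC. The element of the mitosis genes, CHR, was spelled TTTGAA. The box bound by the general factor NF-Y was spelled CCAAT, and the element bound by Myc, the E-box, was spelled CACGTG. Below are the 250 bases before the start, 5′ to 3′ in the direction of the gene, with E2F, CHR and CCAAT matches in capitals. Mcm6 stands for a helicase gene with E2F matches and no CHR, Rfc3 for a fork gene that rose in Cre+ EDL muscles, Cdk1 for a gene with both motifs, and Mki67 for a proliferation marker with CHR matches and no E2F.
Mcm6 (chr1:128359706-128359955, minus strand): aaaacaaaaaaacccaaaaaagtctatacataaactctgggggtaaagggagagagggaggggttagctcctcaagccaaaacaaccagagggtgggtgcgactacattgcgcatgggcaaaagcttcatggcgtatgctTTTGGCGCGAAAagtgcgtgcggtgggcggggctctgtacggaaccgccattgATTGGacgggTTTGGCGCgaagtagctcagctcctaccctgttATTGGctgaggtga
Rfc3 (chr5:151651209-151651458, minus strand): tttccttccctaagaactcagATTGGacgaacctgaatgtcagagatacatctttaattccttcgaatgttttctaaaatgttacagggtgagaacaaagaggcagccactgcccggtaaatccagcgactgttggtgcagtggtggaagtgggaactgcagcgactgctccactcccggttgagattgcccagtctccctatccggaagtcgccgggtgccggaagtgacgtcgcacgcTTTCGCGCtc
Cdk1 (chr10:69352913-69353162, minus strand): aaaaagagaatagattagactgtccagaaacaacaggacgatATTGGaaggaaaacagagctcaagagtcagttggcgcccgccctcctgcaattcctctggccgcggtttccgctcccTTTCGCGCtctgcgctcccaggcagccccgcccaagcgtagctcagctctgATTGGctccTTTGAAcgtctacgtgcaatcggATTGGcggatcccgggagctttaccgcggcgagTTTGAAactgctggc
Mki67 (chr7:135716380-135716629, minus strand): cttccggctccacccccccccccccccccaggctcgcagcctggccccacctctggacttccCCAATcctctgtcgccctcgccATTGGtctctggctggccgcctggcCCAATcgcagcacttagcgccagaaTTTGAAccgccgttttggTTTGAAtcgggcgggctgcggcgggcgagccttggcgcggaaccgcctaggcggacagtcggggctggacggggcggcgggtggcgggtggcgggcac
In Mcm6 the first capital stretch holds 2 overlapping E2F matches, read on opposite strands, at 110 and 106 bases before the start. The E2F motif was in 11 of the 36 windows (30.6%), against 0.813% of all 32851 windows of this length. Of the 24 windows from the roles up to the E2F and pocket genes 10 held it, and of the 12 from A and B cyclins, Cdk1 and mitosis 1 did. The CHR motif had the opposite distribution, with 8 of these 12 windows and 2 of the other 24, against 17.9% of all windows. A CCAAT box was in 23 windows (63.9%, against 37.4% of all) and an E-box in 3 (8.33%, against 7.15%). These are matches of exact letters only, so a site spelled in another way was not counted. Among the 6 genes that rose in Cre+ EDL muscles, the windows of E2f1, Ccne1 and Ccnd3 held none of the E2F, CHR or CCAAT letters, Prim1 held a CCAAT box, and Rb1 had no entry. Each of these windows covers only the start of the deposited transcript, so it does not show that the gene lacks these motifs at another start.

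Levels in Cre- muscles set the scale. Per exon length (FPKM, counts divided by exon length and by TMM-scaled library size), 3 of the 46 genes had a median above 10 FPKM over the 4 Cre- EDL libraries of 2.5 and 8.5 days. These were Cdk4 (27.3 FPKM), Pcna (17.2 FPKM) and Ccnd3 (16.5 FPKM), and the same 3 led in Cre- SOL muscles. Pcna encodes the sliding clamp of DNA polymerases and also serves DNA repair. In EDL muscles 25 genes had a median under 1 FPKM, and 4 were under 0.1 FPKM. By counts, 33 genes had at least 10 in every library, while 13 fell under 10 in some library and 2 (Ccnb1 and Bub1) were at 0 in some. A count of 0 allows up to 3 counts, and the values of these 13 genes carry that counting error. The summed level of the 12 licensing and helicase genes ranged from 43.0 to 68.4 CPM (counts divided by TMM-scaled library size, without length) over the 24 libraries and that of the 7 fork genes from 42.7 to 56.0 CPM, while the 4 A and B cyclins and Cdk1 ranged 18.0-fold, from 0.445 to 8.01 CPM.

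**Figure D1:**
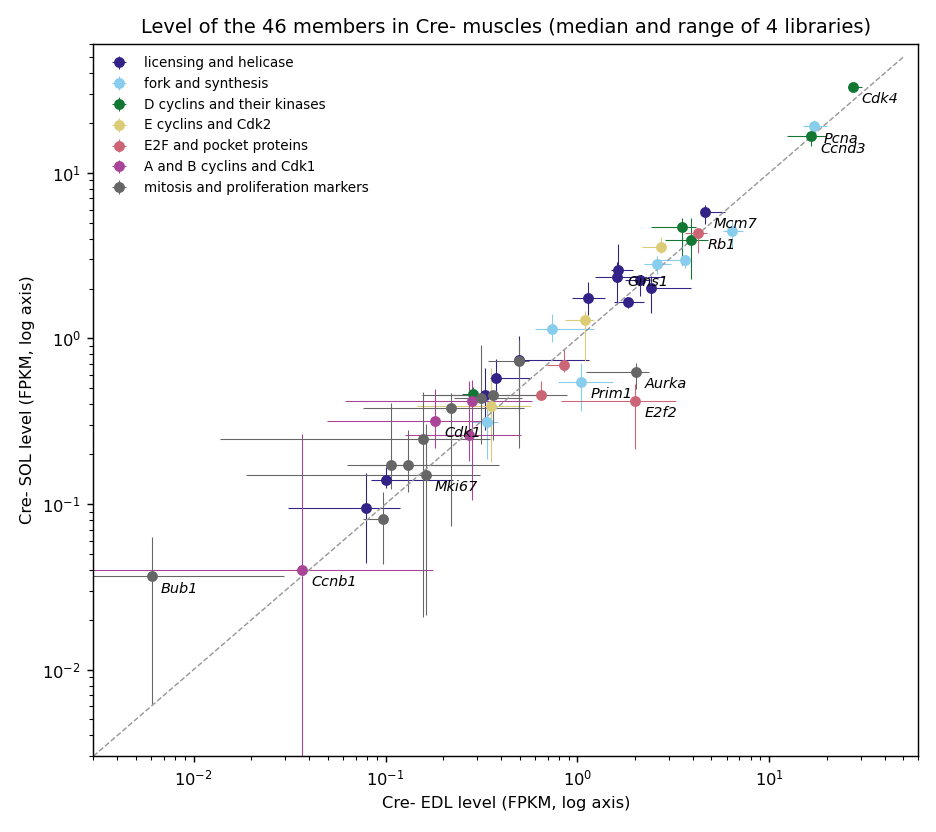
Level of the 46 genes in Cre- EDL (x axis) and Cre- SOL (y axis) muscles at 2.5 and 8.5 days, in FPKM on log axes. Points are medians and bars the range of 4 libraries for each muscle, with bars that reach 0 running off the axis, and the dashed line marks equal levels; Cdk4, Pcna and Ccnd3 sit at the top and Ccnb1 and Bub1 at the bottom.

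Fast and slow muscle of Cre- mice differed in 8 of the 46 genes. A gene is called here when its log2 fold change in edgeR's quasi-likelihood test passes 0.5 in either direction and its adjusted p (Benjamini-Hochberg, over all genes tested) is below 0.05. With SOL muscles as the reference, 5 genes were higher in Cre- EDL muscles, against a background of 10.8% of the 15372 genes tested, and 3 were lower, against 11.1%; with library size alone as the scaling the split was 3 higher and 5 lower. E2f2, an activator E2F, was at 0.912 and 3.09 FPKM in Cre- EDL muscles at 2.5 days and at 0.216 and 0.472 FPKM in Cre- SOL muscles, and over both time points the log2 difference was 2.38 (SE 0.45, adjusted p = 0.00141, edgeR). Aurka, the Aurora A kinase of the spindle poles, differed by 1.62 (adjusted p = 0.000376), and Prim1, the primase subunit that starts new strands, by 1.07 (adjusted p = 0.000575). The other 2 were Rfc4, a subunit of the clamp loader (0.59), and Mcm2, a helicase subunit (0.51, adjusted p = 0.0395), which was no longer called when 1 of 5 of the 8 libraries was left out (either EDL library of 2.5 days, or library 2 of SOL at 2.5 days or of either muscle at 8.5 days), its log2 difference without 1 library ranging from 0.31 to 0.67. The 3 genes lower in EDL muscles were Gins1, a helicase cofactor (-0.71), Cdk6 (-0.66) and the helicase subunit Mcm6 (-0.60).

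The OSKM transcripts were read first as a check of the genotype labels. In EDL muscles all 4 were called higher in Cre+ than in Cre- at 2.5 and at 8.5 days, with median log2 fold changes of 6.38 and 6.68, and in SOL muscles Pou5f1 and Sox2 were. At 5.5 days the summed OSKM level was 37.1 CPM in EDL library 1 labelled Cre+ and 267 CPM in library 2, against 38.4 and 39.7 CPM in Cre- EDL, and the SOL libraries labelled Cre+ were at 25.1 and 46.4 CPM against 51.3 and 51.2 CPM. Most of the sum in Cre- EDL was Klf4 (30.9 and 31.4 CPM). Pou5f1 had 64 and 1686 counts in the EDL libraries labelled Cre+, against 2 and 0 in Cre-. Sox2 had 36 and 1248 counts, against 7 and 1. In SOL both genes had 4 and 22 counts in the libraries labelled Cre+, against 1 and 0 (Pou5f1) and 5 and 0 (Sox2) in Cre-. The study removed samples without OSKM overexpression, and which ones is not given in the sources used here. The comparisons at 5.5 days were tested in a fit of all 24 libraries, and all other tests use the 16 libraries of 2.5 and 8.5 days.

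After 2.5 days of Dox, 6 of the 46 genes rose in Cre+ EDL muscles and none fell, by edgeR on the 16 libraries. The 6 rises are 13.0% of the list, close to the background of 13.8% of all tested genes, and 10.2% of all genes fell. The 6 were Rb1, E2f1, Ccnd3, Ccne1, Prim1 and Rfc3. With a share this close to the background, the roles they belong to cannot be read as a stage of the cycle. None of the 15 A and B cyclin, Cdk1 and mitosis genes was called in this fit, and none of the 12 licensing and helicase genes. DESeq2 on the same libraries called 8, these 6 with Bub1b and Lig1. The fit of all 24 libraries called 7 higher, with Lig1 added, and 1 lower, Cdc45, and without Cre+ library 1 the test called 5 higher and 1 lower, Ccnd2. The median log2 fold change over the 46 genes was 0.26, against -0.05 over all genes. An unadjusted p under 0.05 was found for 12 of the 46, against 5998 of all 15372 genes.

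**Figure D2:**
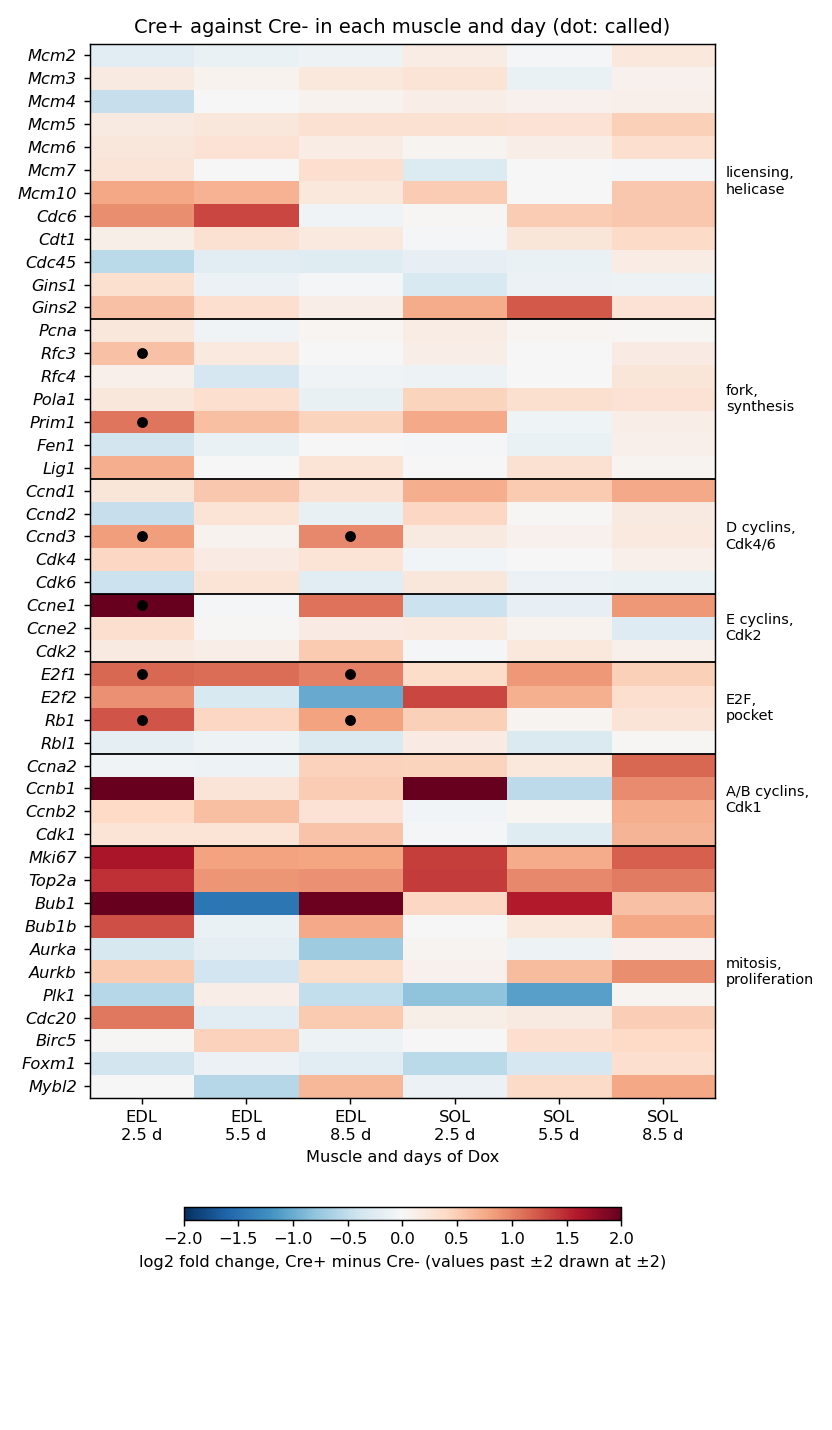
Log2 fold changes of the 46 genes (rows, grouped by role) in Cre+ against Cre- muscles for each muscle and time point (columns), coloured from blue (lower in Cre+) to red (higher), with values past 2 in either direction drawn at 2; the value of Ccnb1 in EDL muscles at 2.5 days rests on no count in Cre-. Black dots mark called genes: 6 in EDL at 2.5 days, 3 in EDL at 8.5 days and none in SOL muscles or at 5.5 days.

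Rb1 (chr14:73195502-73325791, minus strand, mm10), which encodes the pocket protein that holds E2F factors in check, was at 4.61 and 3.94 FPKM in Cre- EDL muscles and at 9.26 and 11.3 FPKM in Cre+ EDL muscles at 2.5 days. Both Cre+ libraries were above both Cre- libraries, and the log2 fold change was 1.25 (SE 0.18, adjusted p = 0.000402, edgeR). At 8.5 days Cre- EDL libraries were at 4.75 and 3.64 FPKM and Cre+ at 7.40 and 7.08 FPKM, a log2 fold change of 0.81 (SE 0.18, adjusted p = 0.0106). Without Cre+ library 1 or Cre- library 2 of 8.5 days this call was lost (adjusted p = 0.0778 and 0.0623). Of its exons, 105 bases overlap Rcbtb2 on the other strand, which moved the other way at 2.5 days, by -0.76 (adjusted p = 0.0012).

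E2f1 (chr2:154559400-154569426, minus strand) encodes an activator E2F, and its own transcript is a target of E2F. It was at 0.854 and 0.859 FPKM in Cre- and at 1.75 and 2.05 FPKM in Cre+ EDL muscles at 2.5 days, a log2 fold change of 1.14 (SE 0.26, adjusted p = 0.00656). At 8.5 days the Cre- libraries were at 0.695 and 0.858 FPKM and the Cre+ libraries at 1.76 and 1.31 FPKM (1.00, SE 0.27, adjusted p = 0.0229), so that the groups were apart at both time points. The call at 8.5 days was lost without Cre+ library 1 (0.78, adjusted p = 0.201) or without Cre- library 1 (0.86, adjusted p = 0.141). E2f2, the other activator E2F of the list, varied between replicates. At 2.5 days it was at 0.912 and 3.09 FPKM in Cre- and at 4.01 and 3.58 FPKM in Cre+ EDL muscles, and at 8.5 days at 0.822 and 3.28 FPKM in Cre- and at 1.23 and 0.776 FPKM in Cre+, so the Cre+ libraries of 8.5 days lay within or just below the range of the Cre- libraries, and neither comparison was called (adjusted p = 0.262 at 2.5 days). Rbl1, the p107 pocket protein, was at 0.657 and 0.426 FPKM in Cre- and at 0.608 and 0.350 FPKM in Cre+ at 2.5 days, with overlapping groups. The summed level of the 4 E2F and pocket genes went from 31.1 and 37.5 CPM in Cre- to 69.7 and 76.3 CPM in Cre+ EDL muscles at 2.5 days.

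Among the D cyclins, Ccnd3 alone was called. Ccnd3 (chr17:47505051-47599688, plus strand) encodes cyclin D3, the D cyclin known to stay high in differentiated muscle. It was at 14.6 and 19.7 FPKM in Cre- and at 30.4 and 31.2 FPKM in Cre+ EDL muscles at 2.5 days (0.84, SE 0.21, adjusted p = 0.00947, edgeR), and at 12.4 and 18.5 FPKM against 31.8 and 27.4 FPKM at 8.5 days (0.96, adjusted p = 0.00838). Without Cre- library 1 the call was lost at both time points (adjusted p = 0.102 and 0.0829), as it was without Cre+ library 2 at 2.5 days (adjusted p = 0.0509) and Cre+ library 1 at 8.5 days (adjusted p = 0.0822). Its exons overlap those of Bysl on the other strand over 361 bases, and Bysl also rose, by 0.76 at both time points (adjusted p = 0.0229 and 0.0368). Whether the counting used strand is not given in the sources used here, so reads of this stretch cannot be assigned to 1 of the 2 genes.
Ccnd1, the cyclin of mitogen-driven G1 entry, was at 2.43 and 3.45 FPKM in Cre- and at 3.96 and 3.0 FPKM in Cre+ EDL muscles at 2.5 days, with overlapping groups (0.24, adjusted p = 0.605). Ccnd2 was at 2.86 and 3.65 FPKM in Cre- and at 2.86 and 1.87 FPKM in Cre+ (-0.47, adjusted p = 0.179). Cdk4, the kinase of the D cyclins, was at 26.5 and 28.0 FPKM in Cre- and at 33.9 and 38.9 FPKM in Cre+ (adjusted p = 0.0183), but its log2 fold change of 0.41 was under the limit of 0.5. Its partner kinase Cdk6 was under 0.3 FPKM in all 4 of these libraries.

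Ccne1 (chr7:38097984-38107490, minus strand), which encodes cyclin E1, the Cdk2 partner of the G1 to S step, had the highest fold of the 6. It was at 0.280 and 0.576 FPKM (23 and 47 counts) in Cre- and at 1.73 and 1.77 FPKM (184 counts in each library) in Cre+ EDL muscles at 2.5 days, a log2 fold change of 2.02 (SE 0.45, adjusted p = 0.00537, edgeR). Without Cre- library 1 it was 1.60 and not called (adjusted p = 0.0629). At 8.5 days the Cre- libraries were at 0.146 and 0.430 FPKM and the Cre+ libraries at 0.727 and 0.485 FPKM, which did not pass (1.08, adjusted p = 0.147). In SOL muscles at 2.5 days the order was not the same, with 0.663 and 0.484 FPKM in Cre- and 0.342 and 0.495 FPKM in Cre+. The kinase Cdk2 was at 2.18 and 2.89 FPKM in Cre- and at 3.97 and 3.25 FPKM in Cre+ EDL muscles at 8.5 days (0.53, adjusted p = 0.0823). Ccne2, cyclin E2, had a log2 fold change of 0.34 at 2.5 days (adjusted p = 0.421).

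**Figure D3:**
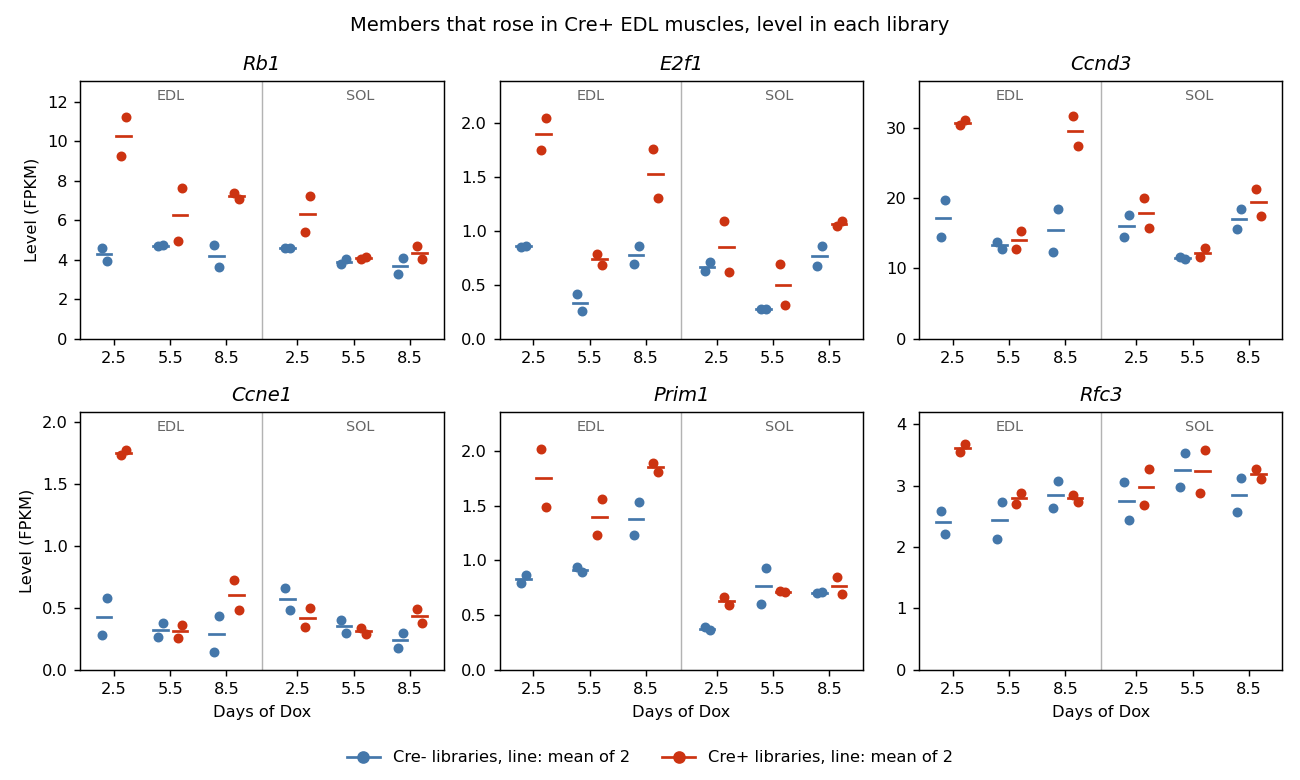
Level in FPKM (y axis, from 0) of the 6 genes that rose in Cre+ EDL muscles, by days of Dox (x axis) in EDL (left) and SOL (right) muscles; each point is a library and each line the mean of 2. In EDL muscles at 2.5 days the Cre+ points of all 6 genes lie above the Cre- points, as with Rb1 at 9.26 and 11.3 against 4.61 and 3.94 FPKM.

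Of the fork and synthesis genes Prim1 and Rfc3 were called at 2.5 days. Prim1 (chr10:128015215-128030030, plus strand) was at 0.795 and 0.862 FPKM in Cre- and at 2.02 and 1.49 FPKM in Cre+ EDL muscles, a log2 fold change of 1.08 (SE 0.24, adjusted p = 0.005, edgeR); in the 4 libraries of this comparison alone the adjusted p was 0.0546. Rfc3 (chr5:151642824-151651208, minus strand), a clamp loader subunit, was at 2.59 and 2.21 FPKM in Cre- and at 3.55 and 3.67 FPKM in Cre+ (0.58, SE 0.20, adjusted p = 0.0435), and leaving out any 1 of the 4 libraries, Cre+ or Cre-, ended this call (adjusted p from 0.08 to 0.228). The clamp itself, Pcna, was at 15.0 and 16.1 FPKM in Cre- and at 17.2 and 19.4 FPKM in Cre+, with no overlap of the groups and a log2 fold change of 0.23 (adjusted p = 0.213). Lig1, the ligase that joins Okazaki fragments, was at 0.711 and 0.769 FPKM in Cre- and at 1.28 and 1.18 FPKM in Cre+ (0.73, adjusted p = 0.067). The flap nuclease Fen1 had a negative value, -0.36 (adjusted p = 0.165). At 8.5 days none of the 7 was called, and Pcna was at 18.3 and 20.1 FPKM in Cre- and at 18.5 and 20.4 FPKM in Cre+.

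No licensing or helicase gene was called between Cre+ and Cre- muscles in the fit of 16 libraries. The fit of all 24 libraries called Cdc45 lower, and library size alone as the scaling called Cdc6 and Mcm7 higher. Of the 12 licensing and helicase genes 9 had positive and 3 negative log2 fold changes in EDL muscles at 2.5 days, with a median of 0.21. Over all genes 46.6% were positive, with a median of -0.05. Mcm2 was at 2.36 and 2.46 FPKM in Cre- and at 2.31 and 1.83 FPKM in Cre+ (-0.22, adjusted p = 0.528), a sign that turned to 0.10 with library size alone as the scaling. Mcm4, another helicase subunit, was at 2.07 and 2.19 FPKM in Cre- and at 1.63 and 1.46 FPKM in Cre+ (-0.47, adjusted p = 0.0592), and Cdc45, the cofactor that activates the helicase, was at 1.68 and 1.97 FPKM against 1.23 and 1.31 FPKM (-0.53, adjusted p = 0.0602). For both genes the Cre+ libraries lay below the Cre- libraries. Cdc6, a loader of the helicase, had the largest value of the role, 0.93, on 17 and 16 counts in Cre- and 31 and 50 counts in Cre+ (adjusted p = 0.109).

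Apart from Aurka and Bub1b, genes of mitosis and proliferation had low counts at 2.5 days. Mki67, which encodes the proliferation marker Ki-67, had 8 and 28 counts in Cre- and 115 and 30 counts in Cre+ EDL muscles, or 0.0188 and 0.0662 against 0.209 and 0.0558 FPKM. One Cre+ library was high and the other between the Cre- libraries, and the log2 fold change was 1.63 (SE 0.84, adjusted p = 0.17, edgeR). Top2a, the topoisomerase of dividing cells, had 3 and 17 counts in Cre- and 55 and 17 counts in Cre+ (1.47, adjusted p = 0.299). Cdk1, the mitotic kinase, had 6 and 21 counts in Cre- and 28 and 14 in Cre+ (0.27, adjusted p = 0.796), and without either library 1 its value turned negative. Ccnb1, cyclin B1, had 0 counts in both Cre- libraries and 6 and 4 in Cre+, which is at least 2.60-fold higher against the 3 counts that a 0 over the group allows. Bub1, a spindle checkpoint kinase, had 1 count in Cre- and 7 in Cre+ in all, a ratio of 5.45 with an exact 95% counting interval from 0.70 to 246.
Bub1b, the BubR1 checkpoint protein, differed without overlap of the groups, at 0.532 and 0.464 FPKM in Cre- and 1.00 and 1.44 FPKM in Cre+ (82 and 71 against 200 and 280 counts). Its log2 fold change of 1.28 did not pass in edgeR on the 16 libraries (adjusted p = 0.0732). It was called by DESeq2 on the 16 and on the 4 libraries, by edgeR on the 4 libraries, without a filter on low counts, with library size alone and with the replicate block. Plk1, Aurka, Foxm1 and Mybl2 had negative log2 fold changes between -0.57 and 0.00, and no adjusted p of these 4 was under 0.5.

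At 8.5 days 3 of the 46 genes rose in Cre+ EDL muscles (Ccnd3, E2f1 and Rb1) and none fell, against a background of 7.63% of all genes that rose and 6.5% that fell. This is 6.52% of the list. The median log2 fold change was 0.21, against -0.02 over all genes, and 31 of the 46 values were positive, against 48.4% of all genes. Of the 46 genes 7 had an unadjusted p under 0.05, against 4588 of all 15372. Without Cre+ library 1 none was called, and without Cre- library 2 there were 6. Mki67 had 92 and 124 counts in Cre- and 460 and 111 in Cre+ EDL muscles, with the Cre+ libraries on both sides of the Cre- libraries (0.78, adjusted p = 0.513), and Top2a had 43 and 72 against 287 and 47 counts (0.91, adjusted p = 0.492). Without Cre+ library 1 these values were -0.37 and -0.70. The change between Cre+ and Cre- was itself compared between 8.5 and 2.5 days in EDL muscles, and no gene of the 15372 was called in either direction (0% higher and 0% lower), nor by DESeq2 among the 46. An unadjusted p under 0.05 was found for 2 of the 46, against 1469 of all genes.

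In SOL muscles edgeR called none of the 46 genes. At 2.5 days 0.345% of all genes were called higher and 0.039% lower. Of the 46 values 31 were positive, against 52.9% of all genes. An unadjusted p under 0.05 was found for 3 (Prim1, Ccnd1 and Rb1), against 2053 of all 15372 genes. At 8.5 days 0.332% of all genes were called higher and 0.299% lower. Of the 46 genes only Ccnd1 had an unadjusted p under 0.05, against 1015 of all genes. Positive values were found for 42 of the 46, with a median of 0.29, against 48.7% and a median of -0.006 over all genes. DESeq2 on all 16 libraries called none, and on the 4 libraries of each comparison 1 in each, E2f2 at 2.5 days and Ccnd1 at 8.5 days. Ccnd1 was at 2.76 and 4.46 FPKM in Cre- and 7.57 and 4.22 FPKM in Cre+ SOL muscles at 2.5 days and at 5.30 and 4.9 FPKM against 9.53 and 7.60 FPKM at 8.5 days, where the groups did not overlap (0.76, adjusted p = 0.645, edgeR). Mki67 had 115 and 103 counts in Cre- and 441 and 226 in Cre+ SOL muscles at 8.5 days (1.20, adjusted p = 0.884), and Ccna2, cyclin A2, had 58 and 39 against 179 and 108 counts (1.14, adjusted p = 0.769). Rb1 was at 4.59 and 4.58 FPKM in Cre- and at 5.40 and 7.24 FPKM in Cre+ SOL muscles at 2.5 days (0.48, adjusted p = 0.278).

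Whether the change in EDL muscles differed from that in SOL muscles was tested directly. At 2.5 days edgeR called none of the 46 genes, with 3.36% of all genes called for a larger change in EDL and 0.891% for a smaller one. Ccne1 was close to the threshold (2.46, SE 0.64, adjusted p = 0.0514). An unadjusted p under 0.05 was found for 7 of the 46, against 3221 of all 15372 genes. DESeq2 called 3 (Ccne1, Cdk4 and Rb1). EDL and SOL libraries with the same replicate number deviated together from their groups, and with that number as a block within genotype and day the test called Ccne1 for a larger and Ccnd2 for a smaller change in EDL; without Cre+ EDL library 1 it also called 2. At 8.5 days none of the 46 was called by edgeR or DESeq2 (0.533% of all genes larger and 0.0585% smaller). An unadjusted p under 0.05 was found for 1 of the 46, against 1729 of all genes. Of the 46 values 15 were positive, against 48.3% of all genes.

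At 5.5 days none of the 46 genes was called in either muscle by edgeR or DESeq2. In EDL muscles 0.258% of all 15478 genes tested were higher and 0.0452% lower, and in SOL muscles 0% and 0%. An unadjusted p under 0.05 was found for 5 genes in EDL, among them E2f1, at 0.419 and 0.253 FPKM in Cre- and at 0.790 and 0.689 FPKM in the libraries labelled Cre+ (adjusted p = 0.255), and for 2 in SOL. Over all genes tested 1307 in EDL and 597 in SOL had an unadjusted p under 0.05. Rb1 was at 4.68 and 4.75 FPKM in Cre- EDL and at 4.93 and 7.62 FPKM in the libraries labelled Cre+, the higher value being that of library 2, which had the higher OSKM level. Mki67 had 14 and 9 counts in Cre- and 41 and 1 in the EDL libraries labelled Cre+.

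Some mitosis genes were higher in every library of 8.5 days, Cre- and Cre+ alike. Because EDL and SOL libraries with the same replicate number deviated together, these libraries may not all be independent samples. After 8.5 days Mki67 was between 0.216 and 0.784 FPKM in the 8 libraries of both muscles and genotypes, with a median of 0.309 FPKM, and in the 16 libraries of 2.5 and 5.5 days it was between 0.00233 and 0.209 FPKM, with a median of 0.0562 FPKM. Ccnb2, cyclin B2, was between 0.384 and 1.00 FPKM at 8.5 days and between 0.0612 and 0.315 FPKM at the other time points. These 2 of the 46 genes were above in every library of 8.5 days, as were 0.426% of all 15478 genes, and none was below in every library, as 0.168% were. Top2a was between 0.178 and 1.13 FPKM at 8.5 days and between 0.0137 and 0.269 FPKM otherwise, so its groups overlapped.

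**Figure D4:**
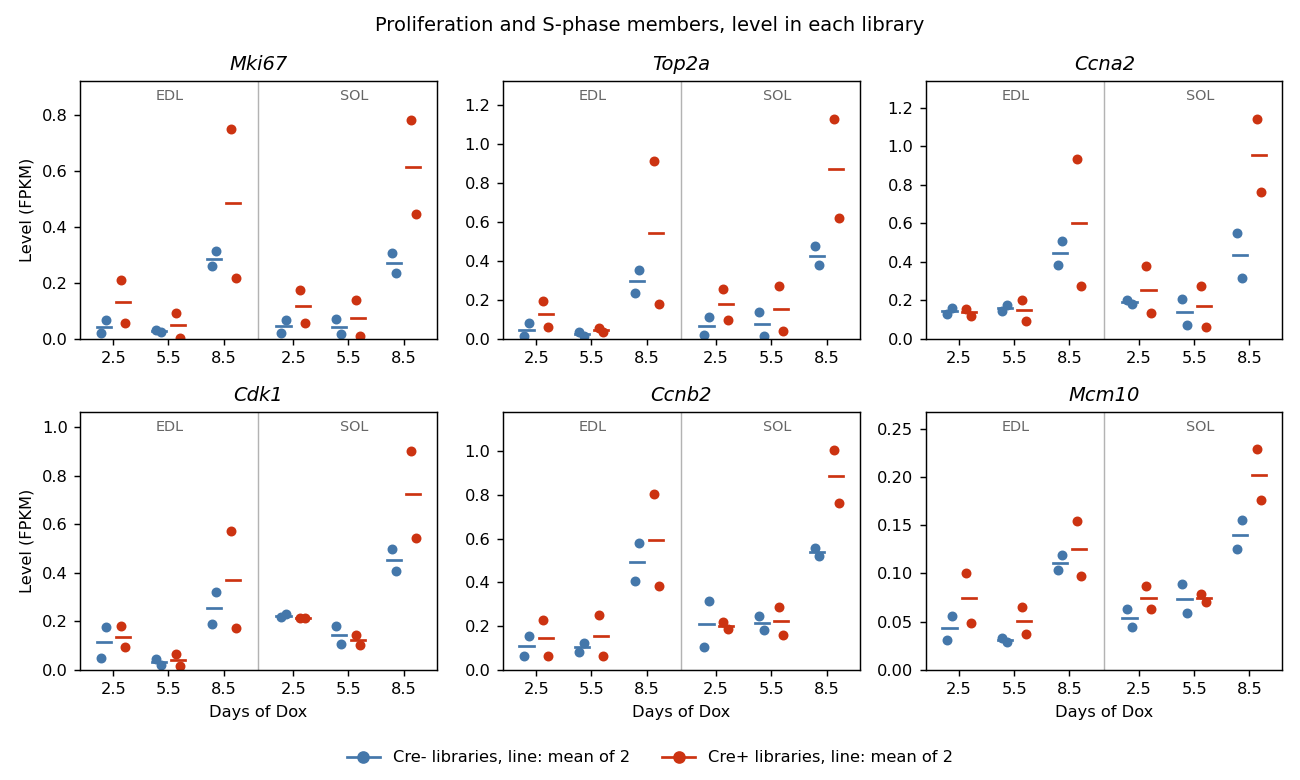
Level in FPKM (y axis, from 0) of 6 proliferation and S-phase genes by days of Dox (x axis) in EDL (left) and SOL (right) muscles; each point is a library and each line the mean of 2. Mki67 and Ccnb2 lie higher in all 8 libraries of 8.5 days than in the other 16, in Cre- as in Cre+, and at 8.5 days 1 Cre+ EDL library is far above the other (0.751 against 0.216 FPKM for Mki67).

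Within Cre- mice this comparison, added after the values had been seen, gave no call by edgeR among the 46 genes. In EDL muscles 0.364% of all genes were higher at 8.5 than at 2.5 days and 0.384% lower. Of the 46 genes 9 had an unadjusted p under 0.05, all 9 with a positive value, against 1859 of all 15372 genes. Mki67 went from 8 and 28 to 92 and 124 counts (2.73, SE 0.84, adjusted p = 0.183). DESeq2 called 2 (Ccnb1 and Mki67). In SOL muscles 2.78% of all genes were higher and 0.852% lower. Of the 46 genes 15 had an unadjusted p under 0.05, 13 of them with a positive value, against 2970 of all 15372 genes. Mki67 went from 8 and 28 to 115 and 103 counts (2.58, SE 0.84, adjusted p = 0.115). DESeq2 called 4 (Ccnd2, Mcm5, Mki67 and Top2a). Mcm5, a helicase subunit, went from 0.353 and 0.50 to 0.974 and 1.03 FPKM in Cre- SOL muscles. The labels give no date of harvest or sequencing, so time on Dox cannot be told apart from the mice and handling of each time point.
Other transcripts moved between these same Cre- groups. The summed level of 5 liver transcripts went from 0.778 and 0.772 CPM in Cre- SOL muscles at 2.5 days to 23.7 and 128 CPM at 8.5 days, all 5 called, and from 1.11 and 1.57 to 7.41 and 11.1 CPM in Cre- EDL muscles. The 5 markers of activated SCs and new fibres were at 108 and 97.7 CPM and at 250 and 238 CPM in Cre- SOL muscles, with Myh3, the embryonic myosin, called (1.29). The 9 macrophage markers were at 67.9 and 64.5 CPM and at 84.4 and 114 CPM in Cre- SOL and at 68.9 and 65.9 and at 79.9 and 110 CPM in Cre- EDL muscles, with Ccr2 called in EDL (2.02), and the 4 neutrophil markers reached 11.5 CPM in 1 Cre- SOL library of 8.5 days, with S100a8 called (4.54). In Cre- SOL muscles 1 of 6 endothelial and 1 of 6 fibroblast markers were called higher as well. The part of these cells in the mitosis values was not tested.

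Markers of cell types that can divide were compared between Cre+ and Cre- muscles. None of the 6 SC markers, 5 markers of activated SCs and new fibres, 9 macrophage, 4 neutrophil, 7 lymphocyte (3 of them tested) or 5 erythroid markers (4 tested) was called in either muscle at 2.5 or 8.5 days. The summed SC markers were at 59.3 and 62.3 CPM in Cre- and at 67.5 and 44.8 CPM in Cre+ EDL muscles at 2.5 days, and the macrophage markers at 68.9 and 65.9 against 65.1 and 43.3 CPM. Such sums do not show how each marker moved, and a change in a marker with few counts can be hidden. Pax7, 1 of the 6 SC markers, had 238 and 171 counts in Cre- and 291 and 340 in Cre+ EDL muscles at 2.5 days. At 8.5 days it had 147 and 157 against 353 and 290 counts. Chodl, a larger part of the sum, had 1084 and 1052 against 1196 and 694 counts at 2.5 days. These counts are not scaled by library size, and the Cre+ EDL libraries of 8.5 days were larger than the Cre- ones. By staining of single myofibers after Dox, the study found more SCs, marked by Pax7, on Cre+ than on Cre- fibres. A higher share of these SCs held MyoD, its mark of activation, and SC doublets were seen only on Cre+ fibres. In TA muscles after cycles of Dox, the study found a higher share of SCs with BrdU, its label of cycling cells, in Cre+ mice. These are stains of fibres and of another muscle, not RNA of whole EDL or SOL muscles. All SC and macrophage markers were detected. Fibroblast markers summed to 4669 and 4645 CPM in Cre- and to 5454 and 2821 CPM in Cre+ EDL muscles at 2.5 days, so the Cre+ library 1 with 115 counts of Mki67 was also the higher one in fibroblast, SC and macrophage markers. The same library was the lower one in OSKM transcripts, with a summed level of 154 CPM against 490 CPM in Cre+ library 2. Markers of fast fibres summed to 94240 and 112886 CPM in Cre- and to 66528 and 40989 CPM in Cre+, with 4 of 6 called lower, and 3 of 6 endothelial and 2 of 4 pericyte and smooth muscle markers were called lower as well. At 8.5 days 2 of the 6 fast-fibre markers were lower in Cre+ EDL, and the liver transcripts were lower in Cre+ muscles (3 of 5 in EDL and 5 of 5 in SOL). The part of these shifts in the values of the 46 genes was not tested.

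The CDK inhibitors act against the cyclins listed above. Cdkn1a, which encodes p21, was at 16.7 and 14.7 FPKM in Cre- and at 77.9 and 116 FPKM in Cre+ EDL muscles at 2.5 days, and at 30.5 and 30.9 FPKM against 137 and 121 FPKM at 8.5 days. All Cre+ libraries were far above the Cre- libraries, and the log2 fold changes were 2.61 (SE 0.21, adjusted p = 1.04e-05, edgeR) and 2.09 (adjusted p = 4.5e-05). In SOL muscles it was at 17.0 and 13.7 FPKM in Cre- and at 32.3 and 24.2 FPKM in Cre+ at 2.5 days (0.90, adjusted p = 0.0942). At 8.5 days the Cre- SOL libraries were at 48.1 and 40.7 FPKM and the Cre+ SOL libraries at 88.9 and 70.9 FPKM. The level in Cre- SOL muscles was thus also higher at 8.5 than at 2.5 days. Cdkn1b, which encodes p27, was called lower in Cre+ EDL muscles at 8.5 days, at 20.3 and 27.6 FPKM in Cre- and at 14.5 and 15.9 FPKM in Cre+ (-0.63, adjusted p = 0.0162). Of the other 5 inhibitors 4 were tested and not called in either muscle at 2.5 or 8.5 days, and Cdkn2a was too low to be tested.

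A further 79 genes of the same pathways, of which 78 were tested, were tested in the same comparisons. In Cre+ EDL muscles at 2.5 days 18 rose (23.1% of those tested, against 13.8% of all genes) and 6 fell, against 10.2% of all genes. By role, 7 of 27 origin and fork genes rose, 2 of 14 E2F, DREAM and pocket genes rose and 3 fell, and 9 of 37 mitosis genes rose and 3 fell. The largest rises were in Ndc80, a kinetochore gene (3 and 6 counts in Cre-, 22 and 93 in Cre+, a log2 fold change of 3.28), Lin37, a subunit of the DREAM complex that represses cell cycle genes in resting cells (4.25 and 4.72 FPKM, 14.7 and 37.0 FPKM, 2.52), and Nek2, a centrosome kinase (12 and 12 counts, 70 and 89 counts, 2.35). The largest falls were in Cenpa, the centromere histone (1.85 and 2.08 FPKM, 1.04 and 0.617 FPKM, -1.25), the DREAM and MuvB subunit Lin9 (-1.08) and Anln, which encodes the cytokinesis protein anillin (-1.01). At 8.5 days 4 rose (5.13% of those tested, against 7.63% of all genes), namely E2f8, an atypical repressor E2F (1.61), the phosphatase gene Cdc25b (1.25), and Pold2 (0.93) and Pold1 (0.81), subunits of DNA polymerase delta. The 3 that fell, where 6.5% of all genes did, were Lin52 (-0.99), Lin9 (-0.78) and Rbl2, which encodes the p130 pocket protein of DREAM (-0.53). In SOL muscles and at 5.5 days edgeR called none of the 78, with between 1 and 7 of them at an unadjusted p under 0.05. Over all genes tested it was between 597 and 2053 in the same comparisons.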

How the data were processed

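RNA of EDL and SOL muscles was sequenced in 24 libraries, 2 for each muscle, genotype and time point (polyA-selected, single-end). The authors aligned reads to mm10 with STAR 2.5.3a and used HOMER to count uniquely aligned reads in RefSeq exons. The deposited values are raw counts per gene. Library totals were 36088781 to 54679082. CPM and FPKM were computed from these counts over TMM-scaled totals of all 24 libraries.

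Tests used edgeR 4.0.16 (quasi-likelihood, TMM, minimum count 10, 1 mean per group) in R 4.3.3 on the 16 libraries of 2.5 and 8.5 days (15372 genes, common BCV 0.174) or on all 24 (15478 genes) for 5.5 days, with p-values adjusted by Benjamini-Hochberg over all genes. All 46 genes passed the filter on low counts. An exact permutation test of 2 against 2 libraries cannot go below p = 0.333 and was not used. DESeq2 1.42.0, 2 other scalings, other filters, fold limits and fits, a replicate block, and fits without 1 library were the alternatives. Counting intervals cover counting error only.

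The genes and lists were chosen with earlier results of these data known. Named by rule were Mki67, Top2a, Cdk1, Ccnb1, Pcna, Mcm2, Ccnd1, each called gene, the largest change of each role in EDL at 2.5 days, the 3 largest called rises and falls of the other pathway genes at each EDL time point, the OSKM genes and the CDK inhibitors. Other genes were named after their values were seen, and Cre- muscles of 8.5 and 2.5 days were compared after the data were seen. Replicate numbers were checked by correlating deviations from group means. For EDL with SOL they ranged from 0.173 to 0.445, so the numbers pair the muscles, and for Cre+ with Cre- from -0.169 to 0.0578, so they do not pair genotypes. Exon overlaps used GENCODE M21. Of the 46 genes, 10 overlap an exon of another gene of the table, each on the opposite strand.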

Additional observations from a re-analysis of the deposited data

Results flagged for a closer look

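Among the CDK inhibitors and the 78 other pathway genes tested, 4 changed more in EDL than in SOL muscles at 2.5 days, by the test of the difference itself (edgeR, adjusted over all 15372 genes). These are 1 of 6 inhibitors and 3 of the 78 others (3.85%), close to the 3.36% of all genes called for a larger change in EDL. For Cdkn1a, the p21 gene, the log2 fold change was larger in EDL by 1.72 (SE 0.29, adjusted p = 0.00807), with both Cre+ libraries above both Cre- libraries in each muscle. For Lin37, a DREAM subunit, the difference was 2.38 (SE 0.47, adjusted p = 0.0163), and its Cre+ EDL libraries were at 14.7 and 37.0 FPKM while all Cre- and SOL libraries of 2.5 days were between 4.18 and 5.23 FPKM. For Pold1, the catalytic subunit of DNA polymerase delta, it was 1.04 (SE 0.21, adjusted p = 0.0179), with 4.91 and 5.0 FPKM in Cre+ EDL and 2.53 and 2.56 FPKM in Cre+ SOL muscles. For Rfc5, a clamp loader subunit, it was 1.22 (SE 0.29, adjusted p = 0.0378), with 2.35 and 3.15 FPKM in Cre+ EDL and 1.14 and 1.18 FPKM in Cre+ SOL muscles. Exons of Lin37 overlap Hspb6 over 3 bases and those of Rfc5 overlap Wsb2 over 499 bases, both on the opposite strand. Wsb2 rose in Cre+ EDL muscles at 2.5 days (0.50, adjusted p = 0.0239, edgeR) and not in SOL muscles (0.02, adjusted p = 0.968). Its mean count was 6799, against 128 for Rfc5. Without knowing whether counting used strand, reads of this stretch cannot be assigned to Rfc5 or Wsb2. Hspb6 moved the other way from Lin37 in EDL muscles (-1.66). None of the 46 genes passed this edgeR test without a block at 2.5 or 8.5 days, while DESeq2 called 3 and the replicate block that pairs the muscles 2 at 2.5 days.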

How the results depend on the processing

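With 2 libraries per group, 1 library often decided a call. Leaving out each library in turn gave 3 to 6 called genes in EDL at 2.5 days (main 6, the lowest without Cre- library 1, and 1 of the calls a fall, Ccnd2, without Cre+ library 1), 0 to 6 in EDL at 8.5 days (main 3), 0 to 2 for the difference between muscles at 2.5 days (main 0) and 7 to 10 between Cre- EDL and Cre- SOL (main 8). Library size alone as the scaling moved the all-gene median (log2) to 0.28 in EDL at 2.5 days, 0.16 in EDL at 8.5 days, 0.18 in SOL at 2.5 days and 0.13 in EDL at 5.5 days. It gave 12 called genes of the 46 in EDL at 2.5 days and 5 at 8.5 days, 1 for the difference between muscles at 2.5 days and 1 between Cre- SOL muscles of 8.5 and 2.5 days. Over all genes it gave 4207 rises and 610 falls in EDL at 2.5 days against 2118 and 1566, and 1956 and 542 at 8.5 days against 1173 and 999. A log2 limit of 1 left 1 gene in EDL at 8.5 days. DESeq2 on 4 libraries called 1 gene in SOL at 2.5 days and 1 at 8.5 days. For the difference between muscles at 2.5 days, 1 gene (Ccne1) was called with all 24 libraries, with the size factors of DESeq2 or with at least 10 counts in every library, and 3 by DESeq2. Between Cre- muscles of 8.5 and 2.5 days DESeq2 called 2 in EDL and 4 in SOL.

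With the replicate block within genotype and day, which pairs the muscles, 2 genes differed between muscles at 2.5 days, 0 at 8.5 days, and 8 between Cre- EDL and Cre- SOL. The replicate block within muscle and day gave 6 genes in EDL at 2.5 days, with Bub1b in place of Rfc3, 2 at 8.5 days (without E2f1) and 0 in SOL muscles and at 5.5 days, but those numbers do not pair Cre+ with Cre-.

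Some uncalled values changed sign. Without 1 library, Cdk1 in EDL at 2.5 days ranged from -0.37 to 1.42, below 0 without either library 1 (-0.30 and -0.37). In EDL at 8.5 days, the lowest value being that without Cre+ library 1, Ccnb1 ranged from -0.53 to 1.26, Ccnd1 from -0.068 to 0.59, Cdk1 from -0.54 to 1.17, Mki67 from -0.37 to 1.41 and Top2a from -0.70 to 1.64. Mcm2 at 8.5 days ranged from -0.42 to 0.32 (without Cre- library 2) and Pcna from -0.036 (without Cre+ library 2) to 0.11, with -0.02 without Cre- library 1. With library size alone Mcm2 turned to 0.10 at 2.5 days and 0.086 at 8.5 days. The cause was not tested. Mitosis genes other than Aurka and Bub1b, often under 30 counts at 2.5 days, were too low to show differences smaller than the spread between replicates.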
